A study of Mus musculus with 12 samples.

Results

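The 107 genes described here are those that dipped on day 3 in control mouse embryonic stem (ES) cells, out of 18193 genes measured. They were selected on control values: the mean log2 intensity of the day 3 control arrays lay at least 0.8 below the means of both the day 1.5 and the day 6 control arrays, and the day 1.5 control mean was at least 6. Each gene was represented by its brightest probe set, and 20 genes that met these thresholds were left out because their symbols begin with prefixes treated separately (such as Krt8, Anxa2, Col4a1, Acta2 and Fos). The 6 knockout arrays played no part in the thresholds, so the course of these genes in knockout cells could be tested.

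RNA from mouse ES cells, the self-renewing cells derived from the early embryo, was measured on Affymetrix arrays. The knockout cells had the genotype CreERT2; Roninflox/flox and the control cells Roninflox/flox. Ronin is the zinc finger protein encoded by Thap11, and CreERT2 is a recombinase that acts on floxed alleles once tamoxifen is present. Both genotypes received tamoxifen at 0.25 µM and were sampled on days 1.5, 3 and 6, with 2 arrays for each genotype and day. Cells were seeded at 100000 per 10 cm2 and were split to the same density on day 4. Day 3 cells had therefore grown for 3 days since seeding and day 6 cells for 2 days since the split, so that time on tamoxifen and time since seeding cannot be told apart. All control cells lacked CreERT2, so effects of losing Thap11, of the recombinase itself and of the cell line used cannot be told apart. Nothing in the labels shows that replicate arrays hold RNA of independent cultures, and p-values measure only the spread between these arrays, which may be technical.

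By known roles, grouped once the members were known, 18 of the 107 genes encode secreted proteins or matrix enzymes, 18 signalling ligands, receptors or modulators, 15 transcription or chromatin factors, 14 contractile or filament proteins, 9 germline or early embryo proteins and 33 other enzymes, adhesion and cell proteins. In ES cell cultures, transcription factors such as Gata6 and Sox7 mark cells of primitive endoderm type, an early extraembryonic lineage, whereas Bmp4, Gbx2, Id3 and Myc belong to signalling and transcription circuits that act in self-renewing ES cells. Immediate early genes such as Egr1 respond quickly to serum and growth factors.

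Thap11 was lower in knockout than in control cells on every day sampled. Its intensity was 327.4 and 354.2 on day 1.5, 110.2 and 92.72 on day 3 and 50.64 and 51.5 on day 6 in knockout cells, against 1262 and 1181, 1279 and 1290, and 1305 and 1382 on those days in control cells. Whether its probe set lies within the deleted segment is not given in the sources used here. Array medians lay between 42.37 and 44.72, and those of the 4 day 3 arrays (44.36 or more) were above those of the other 8 (43.04 or less). The 8 ES cell markers checked were all bright: the dimmest, Esrrb, had a mean of 2200, and their summed intensity ranged over 67333 to 69668 in knockout cells and over 64789 to 68444 in control cells. Of 13 fibroblast markers, 9 were under 64 on every array and none was among the 107 genes. None of the 7 trophoblast markers was a member either, and Cdx2, Elf5 and Plac1 among them were under 64 on every array. Their summed intensity was 1903 to 1933 on day 1.5, 2045 to 2087 on day 3 and 1531 to 1594 on day 6 in knockout cells, against 1924 to 1943, 2691 to 3158, and 1908 to 1961 in control cells. This sum was highest on the day 3 control arrays, on which the 107 genes were chosen to be low, and its part in the dip was not tested. A sum is set by its brightest genes. Marker by marker, day 3 minus the average of days 1.5 and 6, in log2, had a median of only 0.03 in control cells and 0.06 in knockout cells. The 6 primitive streak and mesoderm markers summed to 312 to 357 in knockout cells and 287 to 332 in control cells, and the 5 neural markers to 709 to 834 and 608 to 879, with the lowest sums of each on day 3 control arrays.

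Promoter sequences are given for 4 members to show the main part of the windows searched for motifs. They are the 250 bases before the annotated start, on the gene's strand, from RefSeq on GRCm38.p6. The windows searched also ran a short way past the start, and those bases are not printed. Capitals mark the AP-1 site in Prss23 (chr7:89518205-89518454, minus strand), F3 (chr3:121723287-121723536, plus strand) and Cald1 (chr6:34709194-34709443, plus strand), and the CArG box, the letters recognised by serum response factor, in Myl9 (chr2:156775214-156775463, plus strand).
Prss23: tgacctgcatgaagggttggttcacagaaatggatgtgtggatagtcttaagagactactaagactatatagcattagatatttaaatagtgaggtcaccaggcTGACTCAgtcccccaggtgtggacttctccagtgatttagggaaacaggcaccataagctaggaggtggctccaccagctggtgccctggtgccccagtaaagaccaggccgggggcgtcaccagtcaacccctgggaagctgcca
F3: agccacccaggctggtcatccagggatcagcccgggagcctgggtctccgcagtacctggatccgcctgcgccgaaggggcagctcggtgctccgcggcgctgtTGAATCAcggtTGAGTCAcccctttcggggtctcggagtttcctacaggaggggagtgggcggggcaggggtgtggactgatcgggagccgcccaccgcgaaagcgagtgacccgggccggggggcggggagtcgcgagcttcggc
Cald1: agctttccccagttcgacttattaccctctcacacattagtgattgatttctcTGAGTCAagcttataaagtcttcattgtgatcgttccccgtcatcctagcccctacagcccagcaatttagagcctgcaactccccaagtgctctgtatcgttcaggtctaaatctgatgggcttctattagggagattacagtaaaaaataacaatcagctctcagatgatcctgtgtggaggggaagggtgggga
Myl9: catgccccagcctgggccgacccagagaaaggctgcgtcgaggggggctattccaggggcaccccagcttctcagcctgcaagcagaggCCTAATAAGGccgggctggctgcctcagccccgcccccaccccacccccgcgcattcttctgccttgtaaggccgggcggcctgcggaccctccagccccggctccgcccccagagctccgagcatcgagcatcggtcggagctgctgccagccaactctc
RefSeq lists another start for Prss23 in an overlapping window, from which the same site lies 169 bases away. In the bases printed, the site began 146 bases before the start in Prss23, 197 in Cald1 and 161 in Myl9. F3 had 2 sites, of which the more distant began 146 bases before the start.

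A promoter window was at hand for 81 of the 107 genes, and each motif was searched on both strands of the whole window. The AP-1 site, spelled TGANTCA, was present in 14 of these 81 genes (17.3%), beside 7.5% of 14368 genes with a window. The letters GGAATG, bound by TEAD factors, were present in 19 (23.5%), beside 15.3% of all genes. TATAAA was present in 14 (17.3%), beside 11.5%. A CArG box was found only in Cited1 and Myl9 among the 81 (2.5%), beside 1.6% of all genes. Cald1, Gbp2 and Tinagl1 had both an AP-1 and a TEAD match. A gene counted if any of its windows matched, and some genes had several windows. Over single windows, 113 of the members and 18009 of all genes, GGAATG was present in 17.7% and 13.2%. TATAAA was present in 13.3% and 9.8%, and a CArG box in 1.8% and 1.4%. The AP-1 site was present in 17 of the 113 member windows, beside 6.4% of all windows. These matches describe the letters in the windows, and binding was not measured.

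The dip in the control arrays is a description, since it chose the genes. The contrast used below, called the dip, is the day 3 mean minus the average of the day 1.5 and day 6 means, in log2. It had a median of -1.11 in control cells (range -2.51 to -0.83), a 2.16-fold lower day 3 level. The genes nearest the threshold were Ext1, which makes heparan sulfate chains (smaller side 0.8007), Plat, the tissue plasminogen activator (0.8057), and Fgf17, a fibroblast growth factor (0.8097). Just outside lay Foxd3 (0.7959), Zeb1 (0.7964) and Serpinh1 (0.7983). When the thresholds were applied without each control array in turn, 79 of the 107 genes met them every time.

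Knockout cells shared the dip in part. In knockout cells the dip was below 0 for 100 of the 107 genes and had a median of -0.56, a 1.47-fold lower day 3 level, beside a median of -0.01 over all genes. It passed the test downward for 87 genes and upward for 4 (limma, Benjamini-Hochberg adjusted p under 0.05 over 18193 genes). Over all genes, 18.5% passed downward and 9.51% upward. A contrast below 0 can also come from a later rise alone. The day 3 knockout mean lay below both other knockout means for 75 of the 107 genes. Both day 3 knockout arrays lay below the other 4 knockout arrays for 64 members, beside 19.8% of all genes, and above them for 2, beside 16.2%. The knockout dip had a median of 48.5% of the control dip of the same gene, reached at least 50% of it for 51 genes and was deeper than it for 7. Whether the dip differed between genotypes was not tested, because the control dip chose the genes.

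**Figure D1:**
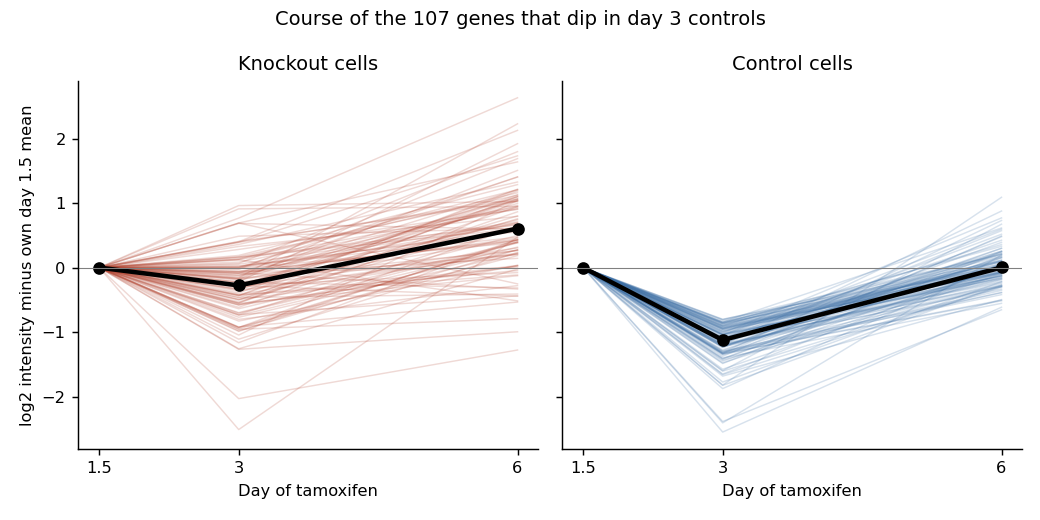
Log2 intensity of each of the 107 genes minus its own day 1.5 mean (vertical axis) against day of tamoxifen (horizontal axis), in knockout cells (left) and control cells (right); thin lines are genes, each the mean of 2 arrays, and the black line is the median. The knockout median lies at -0.28 on day 3 and 0.61 on day 6, whereas the control median lies at -1.12 on day 3, where the genes were chosen to be low.

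In knockout cells more genes rose after day 3 than fell before it. From day 1.5 to day 3, 50 genes fell and 10 rose, beside 13.7% and 6.98% of all genes. The median change was -0.28. From day 3 to day 6, 93 genes rose and 2 fell, beside 20.5% and 13.0% of all genes, and the median change was 0.92. Between day 1.5 and day 6, 78 genes were higher on day 6 and 10 were lower, beside 15.9% and 14.3%, with a median of 0.61.

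Classed by both tests, 45 genes fell and then rose, beside 6.29% of all genes. Another 42 had no call before day 3 and then rose, and 6 rose on both sides. Shares of all genes were not counted for these courses or for the smaller ones below. The remaining 14 comprised 5 that fell without a later call, 3 that rose without a later call, 4 with no call, 1 with no call that then fell (Zp3) and 1 that peaked (Nxf3). Without each knockout array in turn, 28 of the 45 kept both calls in every fit, and 84 of the 93 kept the day 6 rise.

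**Figure D2:**
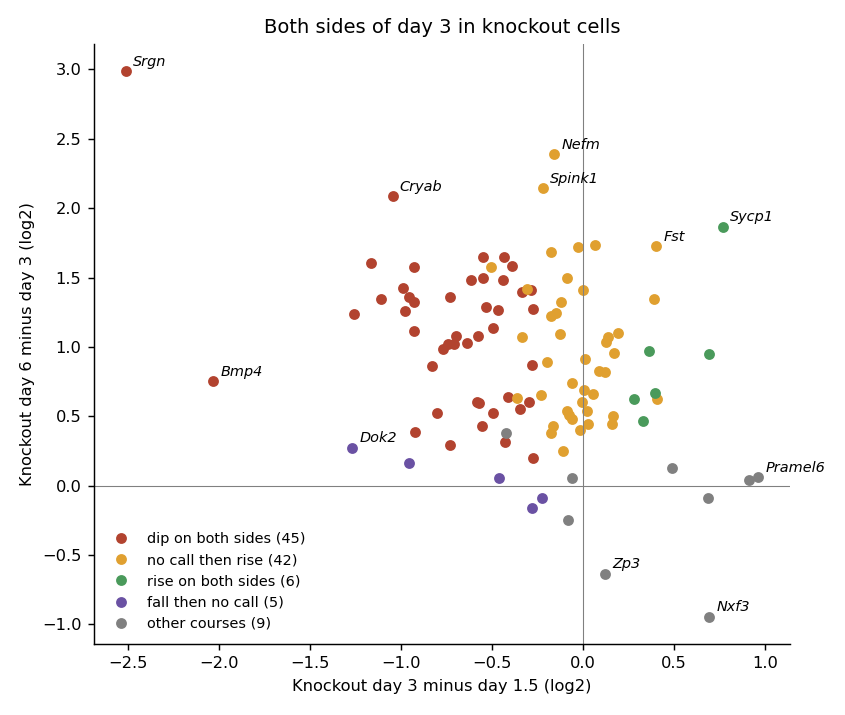
Each point is 1 of the 107 genes, with the knockout change to day 3 from day 1.5 on the horizontal axis and that to day 6 from day 3 on the vertical axis, both in log2; colours give the course by the limma calls. The 45 genes that dipped on both sides fill the upper left, the 42 with only the later rise lie around 0 on the horizontal axis, and Srgn lies far from the rest at -2.51 and 2.99.

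The position of the genes relative to their own 12-array mean was also taken array by array. The median over members was 0.03 and 0.04 on the day 1.5 knockout arrays, -0.21 and -0.23 on day 3 and 0.63 and 0.58 on day 6, against 0.24 and 0.20, -0.91 and -0.90, and 0.21 and 0.23 on the control arrays of those days. The highest medians were those of the day 6 knockout arrays. On day 3, both knockout arrays were above both control arrays for 90 members, beside 33.0% of all genes, and nothing is read from this count because low day 3 controls were the reason for selection. In bulk RNA, fewer cells of a type and less RNA per cell cannot be told apart.

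Secreted proteins and matrix enzymes, the group with the deepest median dips (-0.83 in knockout cells and -1.25 in control cells), numbered 18. In knockout cells 11 of them fell to day 3 and 16 rose to day 6, and 10 did both. Of all genes, 13.7% fell and 6.98% rose to day 3, 20.5% rose to day 6 and 6.29% fell and then rose. These shares also apply to the role groups below. Srgn, the core protein of a granule proteoglycan, read 322.1 and 352.6 on day 1.5, 67.5 and 51.74 on day 3 and 465.7 and 471.4 on day 6 in knockout cells, against 672.6 and 652.1, 235.8 and 236.5, and 765.8 and 804.9 in control cells. The day 3 knockout arrays were the lowest of the 12, and the day 3 groups did not overlap. Its knockout dip was -2.75 ± 0.09 (SE, limma adjusted p = 2.16e-06), beside -1.61 in control cells, the widest gap among the 7 genes whose knockout dip was deeper.

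Fgfbp1, which releases fibroblast growth factors from the matrix, read 572.2 and 637.5 on day 1.5, 318.3 and 305.7 on day 3 and 802.2 and 796.4 on day 6 in knockout cells, against 475.5 and 444.4, 132.5 and 136.2, and 395.9 and 395.0 in control cells. It dipped on both sides in knockout cells, by -1.16 ± 0.06 (SE, limma adjusted p = 6.54e-06), around a higher level than in control cells on every day. Hs3st1, a heparan sulfate sulfotransferase, had a knockout dip of -1.38 ± 0.11, about as deep as the -1.34 in control cells. Igfbp3, which binds insulin-like growth factors, dipped on both sides by -0.87 ± 0.06. F3, the coagulation initiator whose promoter is printed above, read 94.58 and 71.08 in day 3 knockout cells, against 71.75 and 75.53 in day 3 control cells, and its day 3 groups overlapped. Its knockout dip was -1.02 ± 0.11.

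Other secreted proteins showed only the later rise in knockout cells. Spink1, a secreted inhibitor of serine proteases, read 299.7 and 294.5 on day 1.5, 254.5 and 255.0 on day 3 and 1128 and 1126 on day 6 in knockout cells, against 453.4 and 512.8, 88.04 and 76.84, and 312.2 and 317.8 in control cells. The day 3 knockout values were below those of day 1.5 by 0.22 ± 0.08 in log2, which did not pass the test (limma adjusted p = 0.0707), and the day 6 rise was 2.15 ± 0.08 (adjusted p = 7.15e-07). Pla2g7, which hydrolyses platelet-activating factor, likewise rose to day 6 by 1.07 ± 0.13 with no call before day 3.

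Prss23, a secreted serine protease, is a dim member. It read 26.08 and 29.46 on day 1.5, 32.81 and 25.6 on day 3 and 90.83 and 102.5 on day 6 in knockout cells, against 62.26 and 67.8, 18.61 and 18.16, and 130.9 and 146.5 in control cells. Only the day 6 arrays stood apart in knockout cells. The day 1.5 and day 3 knockout values and the day 3 control values lay below the array medians, 42.37 to 44.72. Sulf1, which trims sulfate from heparan sulfate, rose on both sides in knockout cells, by 0.69 ± 0.07 to day 3 and 0.95 ± 0.07 to day 6. Egfl6, a secreted protein with EGF-like repeats, read 162.6 and 130.8 in day 3 knockout cells, against 29.96 and 48.78 in day 3 control cells. It rose to day 3 by 0.69 ± 0.19 (limma adjusted p = 0.0356) and had no later call.

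Among the 18 signalling ligands, receptors and modulators, 9 fell to day 3 and 17 rose to day 6 in knockout cells, and 8 did both. Bmp4, a ligand that acts with LIF to keep ES cells self-renewing, read 915.3 and 944.8 on day 1.5, 228.9 and 225.7 on day 3 and 402.3 and 365.4 on day 6 in knockout cells, against 1369 and 1302, 468.0 and 428.9, and 1253 and 1241 in control cells. It dipped on both sides in knockout cells (dip -1.39 ± 0.06, limma adjusted p = 4.27e-06), but the later rise, 0.75 ± 0.07, left it 1.28 below its own day 1.5 level and 1.70 below control on day 6. Bmper, a secreted modulator of BMP signalling, dipped on both sides at low intensities, 16.84 and 23.22 in day 3 knockout cells, against 24.1 and 20.34 in day 3 control cells. The day 3 values of the 2 genotypes overlapped.

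Phlda1, a pleckstrin-homology protein induced by growth factor signalling, read 496.9 and 524.7 on day 1.5, 271.1 and 265.1 on day 3 and 799.7 and 798.6 on day 6 in knockout cells, against 471.6 and 458.1, 173.0 and 167.1, and 441.4 and 491.6 in control cells. The dip was -1.25 ± 0.05 in knockout cells (limma adjusted p = 4.27e-06), and every day 3 array lay below every other array of its genotype. Pth1r, the parathyroid hormone receptor, fell to day 3 by 0.55 ± 0.10 and rose by 1.65 ± 0.10 to day 6 in knockout cells.

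Fst encodes follistatin, which binds activin. It read 81.12 and 72.46 on day 1.5, 98.29 and 104.5 on day 3 and 322.6 and 348.7 on day 6 in knockout cells, against 101.2 and 89.03, 41.2 and 36.56, and 97.53 and 130.5 in control cells. The day 3 knockout arrays lay above both day 1.5 knockout arrays, a difference of 0.40 ± 0.13 that did not pass the test (limma adjusted p = 0.0624). Fgf17 rose on both sides in knockout cells, by 0.39 ± 0.08 and 0.67 ± 0.08. Kitl, the ligand of the receptor Kit, read 196.4 and 187.8 in day 3 knockout cells, against 85.23 and 86.58 in day 3 control cells, and had no call before day 3.

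All 14 genes of actin, contractile and filament proteins rose to day 6 in knockout cells, 5 of them after a fall to day 3. Myl9, a regulatory light chain of non-sarcomeric myosin whose promoter window held the CArG box, read 203.1 and 201.8 on day 1.5, 198.1 and 182.7 on day 3 and 551.8 and 522.8 on day 6 in knockout cells, against 212.9 and 177.2, 77.96 and 68.35, and 233.2 and 207.6 in control cells. In knockout cells day 3 was 0.09 ± 0.10 below day 1.5, with no call, and day 6 was 1.50 ± 0.10 above day 3 (limma adjusted p = 1.27e-05). Cald1, caldesmon, had the same course, with a day 6 rise of 1.68 ± 0.06.

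Nefm and Nefl encode neurofilament subunits and lie next to each other on chromosome 14. Nefm rose by 2.39 ± 0.14 to day 6 in knockout cells and Nefl by 0.69 ± 0.06, both with no call before day 3. Vim, vimentin, rose by 0.50 ± 0.11, and Cnn1, a calponin, by 1.34 ± 0.17. Phldb2, a cortical protein that anchors microtubules, dipped on both sides. It read 88.41 and 91.24 in day 3 knockout cells, against 66.85 and 92.08 in day 3 control cells, and these groups overlapped.

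**Figure D3:**
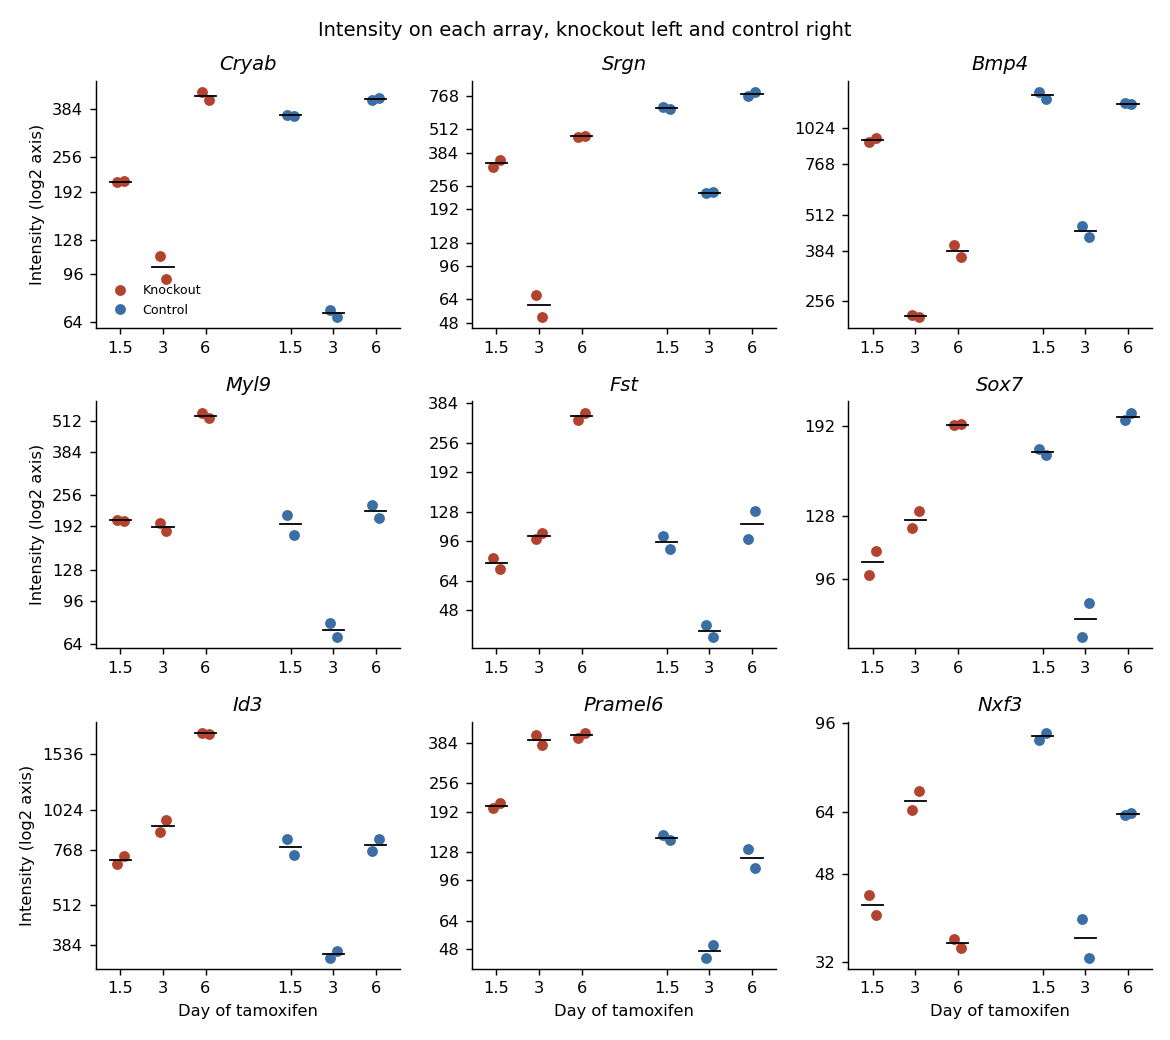
Intensity on each array (points, log2 axis) by day of tamoxifen for 9 of the 107 genes, knockout in red on the left and control in blue on the right of each panel, with black lines at the mean of 2 arrays. Cryab, Srgn and Bmp4 were low on day 3 in both genotypes, Myl9, Fst, Sox7 and Id3 had their highest knockout values on day 6, and Pramel6 and Nxf3 were higher on day 3 than on day 1.5 in knockout cells.

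Among the 15 transcription and chromatin factors, 6 fell and 2 rose to day 3 and 14 rose to day 6 in knockout cells. Myc, the growth regulator, read 681.3 and 691.5 on day 1.5, 476.5 and 497.6 on day 3 and 1032 and 1112 on day 6 in knockout cells, against 719.5 and 717.0, 283.6 and 282.0, and 690.8 and 671.8 in control cells. Its knockout dip was -0.82 ± 0.05 (limma adjusted p = 1.7e-05), with no overlap of day 3 with the other days in either genotype. Vgll3, a cofactor of TEAD factors, dipped by -1.04 ± 0.07, and Cited1, a transcriptional coactivator, by -0.83 ± 0.06. Gbx2, a homeobox factor of the LIF and Stat3 circuit, dipped by -0.59 ± 0.06. Egr1, an immediate early factor, had a small dip on both sides, -0.24 ± 0.06 (adjusted p = 0.0128).

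Id3, an inhibitor of basic helix-loop-helix factors and a target of BMP signalling, did not fall in knockout cells. It read 692.4 and 732.5 on day 1.5, 875.1 and 954.7 on day 3 and 1792 and 1783 on day 6 in knockout cells, against 828.0 and 736.8, 350.3 and 366.8, and 759.0 and 828.6 in control cells. It rose by 0.36 ± 0.08 to day 3 (limma adjusted p = 0.0113) and by 0.97 ± 0.08 to day 6. Its dip contrast was still negative, -0.30 ± 0.07, because the day 3 level lay below the average of a low day 1.5 and a high day 6, so a negative contrast does not by itself mean a fall to day 3. Sox7, the endoderm factor, also rose on both sides in knockout cells, by 0.28 ± 0.08 and 0.62 ± 0.08.

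The remaining group of 33 other enzymes, adhesion and cell proteins held 17 genes that dipped on both sides in knockout cells. Cryab, the small heat shock protein alpha-B crystallin, had the deepest control dip. It read 208.5 and 209.3 on day 1.5, 111.5 and 91.88 on day 3 and 443.7 and 416.0 on day 6 in knockout cells, against 367.4 and 362.6, 70.76 and 66.84, and 414.3 and 424.1 in control cells. The dip was -1.57 ± 0.07 in knockout cells (limma adjusted p = 6.54e-06), beside -2.51 in control cells. The day 3 knockout arrays lay above the day 3 control arrays, and the day 1.5 knockout arrays below those of control.

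Ctsh, a lysosomal cysteine protease, dipped by -1.21 ± 0.10 in knockout cells, and Peg10, an imprinted gene needed in the placenta, by -1.23 ± 0.09. S100a6, a calcium-binding protein and the brightest of the genes shared by both genotypes under the same rule, read 3527 and 3585 on day 1.5, 1968 and 1770 on day 3 and 4693 and 4659 on day 6 in knockout cells, against 3895 and 3890, 2002 and 1919, and 3831 and 3970 in control cells. The day 3 groups overlapped. Cdh2, N-cadherin, rose to day 6 by 1.03 ± 0.09 with no call before day 3.

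Several members of this group had no call for a dip in knockout cells. Ddc, which makes dopamine and serotonin from their precursors, read 1055 and 1031 on day 1.5, 996.2 and 1004 on day 3 and 1032 and 1050 on day 6 in knockout cells, against 820.0 and 800.8, 310.8 and 333.2, and 575.8 and 566.7 in control cells. The knockout dip was -0.06 ± 0.04 (limma adjusted p = 0.355). Gsta3, a glutathione transferase, had a knockout dip of 0.08 ± 0.08, and Gbp2, an interferon-induced GTPase, one of 0.18 ± 0.14 that rested on dim values. Ak7, an adenylate kinase, rose on both sides, by 0.33 ± 0.06 and 0.47 ± 0.06.

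The 9 germline and early embryo genes had the smallest median knockout dip, -0.21, beside -1.02 in control cells. In knockout cells 4 rose and 1 fell to day 3, beside 6.98% and 13.7% of all genes. The knockout dip passed downward for 4 and upward for 4, beside 18.5% and 9.51%. None dipped on both sides, beside 6.29% of all genes, so that none of 9 is near that share. Pramel6 and Pramel7 encode members of a leucine-rich repeat family linked in mouse to the naive state, and lie next to each other on chromosome 2. Pramel6 read 198.8 and 209.0 on day 1.5, 417.1 and 378.6 on day 3 and 404.7 and 424.9 on day 6 in knockout cells, against 152.0 and 144.1, 44.09 and 49.81, and 131.4 and 109.3 in control cells. The rise to day 3 in knockout cells was 0.96 ± 0.10 (limma adjusted p = 0.000328), and Pramel7 rose by 0.91 ± 0.09. Both probe sets carry a suffix for probes shared among transcripts, so the signal of these related genes may be mixed. The other bright probe set of Pramel7 gave a contrast of 0.18 in knockout cells and 0.07 in control cells, with no dip in either. The other probe set of Pramel6, dim at a mean log2 of 4.92, gave 0.227 in knockout cells and 0.062 in control cells, also with no dip.

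Sycp1, a protein of the meiotic synaptonemal complex, rose on both sides in knockout cells. It read 228.1 and 230.8 on day 1.5, 386.4 and 395.3 on day 3 and 1422 and 1427 on day 6 in knockout cells, against 155.2 and 206.0, 79.9 and 75.13, and 173.2 and 150.4 in control cells. Nxf3, of the mRNA export factor family, was the gene that peaked on day 3 in knockout cells: 64.44 and 70.25, against 39.04 and 32.73 in day 3 control cells. It rose by 0.69 ± 0.09 to day 3 and fell by 0.94 ± 0.09 to day 6. Zp3, an egg coat protein, fell by 0.64 ± 0.05 to day 6 with no call before day 3.

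**Figure D4:**
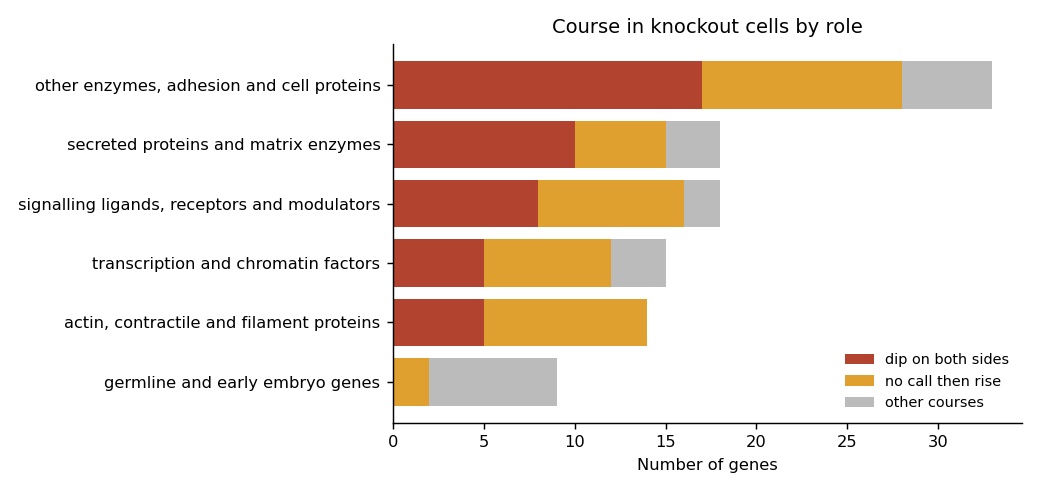
Number of genes (horizontal axis) by role and by course in knockout cells from the limma calls. Genes that dipped on both sides number 17, 10, 8, 5, 5 and 0 from the top group to the bottom one, and the 9 germline and early embryo genes mostly had other courses.

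The same thresholds applied to the knockout arrays found 16 genes, of which 9 are among the 107. These 9 are 8.4% of the control list and 56.2% of the knockout list: Cryab, Srgn, Fgfbp1, Phlda1, Peg10, S100a6, Mcc, Cnpy1 and 1 gene known only by a clone symbol. The mirrored rule, for a day 3 peak, found 5 genes in knockout arrays and 25 in control arrays. These numbers describe the arrays and were not tested.

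Primitive endoderm genes were the pathway list with the most members. Of 22 measured, 6 are among the 107 (Gata6, Sox7, Srgn, Fst, Cited1 and Pth1r). Over the 22, the knockout dip passed downward for 13 and upward for none, beside 18.5% and 9.51% of all genes, and 6 dipped on both sides, beside 6.29%. The median was -0.33, beside -0.71 in control cells. The summed intensity of 11 defining primitive endoderm markers was 3017 to 3108 on day 1.5, 3283 to 3379 on day 3 and 4785 to 4926 on day 6 in knockout cells, against 3777 to 3956, 2382 to 2520, and 4052 to 4204 in control cells. That sum was lowest on day 3 in control cells and on day 1.5 in knockout cells, and Gata4 stayed under 64 on every array. Marker by marker, the knockout dip of these 11 passed downward for 7 and upward for none, and 3 dipped on both sides. Its median was -0.36, beside -0.8 in control cells. Cubn and Dab2 among the 11 met the thresholds when these were applied to the knockout arrays. The part of these cells in the courses above was not tested.

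Of 32 genes of the actin cytoskeleton and of SRF or YAP targets, 2 are members (Myl9 and Cnn1), while Ccn1 and Ccn2 met the thresholds and were left out only by symbol prefix. Over the 32, the knockout dip passed downward for 20 and upward for 1, beside 18.5% and 9.51% of all genes, with a median of -0.26, beside -0.50 in control cells. Of 13 FGF and ERK feedback genes, with Phlda1 the only member, 10 passed downward and none upward, and the median was -0.30 in knockout cells and -0.13 in control cells. Of 19 naive pluripotency genes, with Gbx2 the only member, 5 passed in each direction, beside 18.5% and 9.51% of all genes, and the median was -0.02. Of 13 primed epiblast genes, with Cdh2 the only member, 7 passed upward and 2 downward, and the median was 0.21.

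Lists with no member among the 107 differed in their knockout dips. The knockout dip passed downward for 12 and upward for 1 of 17 cholesterol synthesis genes (median -0.29 in knockout cells and -0.20 in control cells), and for 12 and 1 of 22 integrated stress response genes, of which 8 dipped on both sides (median -0.19 and -0.06). It passed downward for 10 and upward for 1 of 21 p53 targets, with none on both sides (median -0.145 in knockout cells). It passed for 8 and 5 of 21 glycolysis and hypoxia genes (median -0.015), and for 4 and 3 of 12 Wnt feedback genes (median -0.001). It passed for 4 and 1 of 19 mitosis genes (median -0.039), and for 2 and 1 of 13 retinoic acid and Hox genes (median 0.18). Among lists with members, it passed downward for 9 and upward for 2 of 26 adhesion genes, for 7 and 1 of 22 immediate early and heat shock genes, for 7 and 3 of 17 Nodal, TGF-beta and BMP targets, for 5 and 1 of 25 fibroblast or feeder genes, for 3 and 5 of 18 interferon-stimulated genes, and for 3 and 3 of 15 trophoblast genes. Over all genes, the shares were 18.5% downward and 9.51% upward for each of these counts, and 6.29% for dips on both sides.

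Other probe sets gave a second reading for part of the list. For 53 of the genes, 101 further probe sets were on the array, of which 36 had a mean log2 intensity of at least 6. Among these 36, the dip was below 0 for 34 in knockout cells, with a median of -0.56, and for 35 in control cells, with a median of -1.08. Over all 101, dim ones included, the control dip was below 0 for 77. Among the dim ones, many had a knockout dip above 0. The control readings come from the same arrays that chose the genes, so they are not independent of the choice. Among the 79 members measured by a plain probe set, 38 fell to day 3, 70 rose to day 6 and 35 did both in knockout cells. The shares over all genes were 13.7%, 20.5% and 6.29%.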

How the data were processed

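RNA of 12 mouse ES cell samples was hybridised to Affymetrix arrays. The authors deposited 1 intensity per probe set and array, with RMA named as the tool in the submitters' processing notes; a version is not given in the sources used here. The deposited intensity values were linear (5.511 to 34993), so log2 was taken with no pseudocount; log2 values are computed here from the authors' deposited intensities. Of 45101 probe sets, the platform annotation gave 1 symbol to 34958, several to 932 and none to 9211. Control probe sets were removed and the probe set with the highest mean was kept, which left 18193 genes. RMA brings arrays to a common scale, so a change shared by all genes would not be seen. No table column went unmapped.

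A linear model with 6 group means was fitted to all 12 arrays with limma 3.58.1 in R 4.3.3 (lmFit, eBayes), and p-values were adjusted by Benjamini-Hochberg over 18193 genes, with 6 residual degrees of freedom. A call means an adjusted p under 0.05. The fit was tested on simulated data. Alternatives concerned normalization, filters, probe sets, thresholds, array weights and left-out arrays. The number of arrays limits the precision.

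The members and gene lists were chosen with earlier results of these data known, and roles were assigned after the members were known. Genes were named by rule: the 10 deepest control dips, the 8 deepest and the 8 highest knockout dips, up to 4 members per list, the 3 genes on each side of the threshold, members called higher on day 3 in knockout cells, and Thap11. Clone symbols were counted but not named. Members named beyond these were picked after their values were seen. Promoter windows and motifs came from RefSeq tables of GRCm38.p6. Replicate numbers were not taken to pair samples: deviations of same-numbered samples correlated at -0.057 to 0.173 over all pairs of groups, highest between control days 1.5 and 3, and at -0.048 to 0.04 among knockout groups.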

Additional observations from a re-analysis of the deposited data

Results flagged for a closer look

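Members whose day 3 arrays lay above the average of days 1.5 and 6 in knockout cells, while the control arrays lay below it by the choice of genes, are given by their contrast in log2. It was 0.82 for Nxf3, 0.45 for Pramel6, 0.44 for Pramel7, 0.39 for Egfl6, 0.38 for Zp3 and 0.08 for Gsta3. Because the control values chose the genes, the difference between genotypes was not tested.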

How the results depend on the processing

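Across the alternatives, the number of members that fell to day 3 in knockout cells ranged over 34 to 56, that rose to day 6 over 87 to 95, that dipped over 75 to 89, and that dipped on both sides over 32 to 52. With the replicate block these numbers were 47, 93, 87 and 43. The median knockout dip was -0.42 with the mean of all probe sets. The list itself had 247 genes at a threshold of 0.6, 54 at 1.0, 124 with no minimum on day 1.5, 89 after quantile normalization, 73 with the mean of all probe sets and 101 to 116 without a control array. After quantile normalization the knockout dips of Tcea3 and Ak7 turned to 0.037 and 0.029. Without single arrays that of Gbp2 ranged over -0.045 to 0.407, below 0 without the second day 3 array. Of 626 recomputed dips of 42 named members, 607 kept direction and call, 11 lost the call, 5 gained it and 3 turned. Cnn1 lost its call in 8 alternatives, and Pramel6, Egr1 and Id3 lost theirs without the first day 3 knockout array. The cause was not tested. With 2 arrays a group, small changes and dim genes are the least certain.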

Other observations

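By the same thresholds, 7 genes dipped in knockout cells and are not among the 107: Cubn and Dab2, an endocytic receptor and its adaptor, Grik3, Mapk4, Rnf157, Fam13c and 1 gene known only by a clone symbol. Their names were read after the values were seen. Cubn and Dab2 also belong to the primitive endoderm list and to the summed markers of that cell type.

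Lefty1 and Lefty2, secreted inhibitors of Nodal, had positive contrasts in knockout cells and were picked after their values were seen. Over the 17 Nodal, TGF-beta and BMP targets measured, 7 passed downward and 3 upward in knockout cells. Lefty1 read 1525 and 1602 on day 1.5, 3189 and 3169 on day 3 and 925.6 and 943.2 on day 6 in knockout cells, against 1743 and 1729, 2993 and 3370, and 1543 and 1683 in control cells. The day 3 arrays were the highest in both genotypes and overlapped between them. In knockout cells Lefty1 stood 1.40 ± 0.06 above the average of the other days and Lefty2 1.49 ± 0.05 (SE, limma adjusted p = 4.27e-06 and 2.16e-06).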
